A study of Mus musculus with 3 samples.

Results

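The 9 kinases and 1 phosphatase followed here along mouse spermatogenesis drive cells into and through division: Cdk1, Cdk2, Cdc25c, Aurka, Aurkb, Aurkc, Plk1, Nek2, Bub1 and Ttk. They were chosen by gene symbol, and all 10 are among the 32285 genes of the count tables. Single-cell libraries of adult testis of strain C57BL/6N were analysed, made with a 10x Genomics 3′ kit. It tags each captured messenger RNA molecule (by a UMI, a random molecular tag), so that amplified copies count once. Wildtype 1 and wildtype 2 hold cells of 1 mouse each, and knockout 1 was loaded with cells pooled from 2 animals carrying a conditional Tex10 knockout. Tex10 is known from ribosome biogenesis and from stem cells. Which Cre was used, and which exons it removes, is not stated in the labels. The series was made to examine Tex10 in spermatogenesis, and the questions here are at which stage each kinase is highest, which of 2 or 3 paralogs holds a stage, and whether the library labelled knockout differs from both wildtype libraries.

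Spermatogonia divide by mitosis. Spermatocytes replicate their DNA once, spend a long prophase in recombination, and then pass through meiosis I and II in quick succession to give haploid round spermatids, which elongate without dividing again. CDK1 with a B-type or A-type cyclin is the kinase that starts M phase, CDK2 acts in S phase and at the telomeres and recombination sites of spermatocytes, and CDC25C is a phosphatase that activates CDK1. AURKA works at spindle poles, AURKB is the catalytic subunit of the chromosomal passenger complex, and AURKC is a close relative of AURKB known from germ cells. PLK1 acts at centrosomes, kinetochores and in the removal of synaptonemal complex, NEK2 in centrosome separation, and BUB1 and TTK (also called MPS1) in the spindle assembly checkpoint.

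The promoters of 8 of the 10 genes have an entry in the RefSeq table on GRCm38.p6. Those of Aurkb and Cdc25c were not used here. The 250 bases before each start were searched on both strands for the CCAAT box (letters CCAAT) and for the cell cycle homology region, CHR (letters TTTGAA), which are known from promoters of genes of G2 and M phase and do not overlap each other in letters. The promoters of 3 genes are shown because they set apart a pair of paralogs and the gene with both motifs. They are the 150 bases before the RefSeq start of Cdk1 (chr10:69352913-69353062, minus strand) and of Aurka (chr2:172370571-172370720, minus strand). For Aurkc 150 bases (chr7:6995150-6995299, plus strand) are shown, of which the last lies 86 bases before the RefSeq start. By the gene span given below, Cdk1 starts at base 69352938, inside its window. The CHR match nearest the RefSeq start of Cdk1 thus lies within that span. Capitals mark matches to either motif.
Cdk1: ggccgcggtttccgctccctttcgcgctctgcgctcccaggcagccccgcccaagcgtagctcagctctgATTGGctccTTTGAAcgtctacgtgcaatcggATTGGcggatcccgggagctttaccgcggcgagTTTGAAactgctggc
Aurka: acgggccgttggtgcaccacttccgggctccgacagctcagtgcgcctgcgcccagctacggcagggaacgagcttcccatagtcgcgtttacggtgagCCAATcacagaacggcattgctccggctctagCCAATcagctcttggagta
Aurkc: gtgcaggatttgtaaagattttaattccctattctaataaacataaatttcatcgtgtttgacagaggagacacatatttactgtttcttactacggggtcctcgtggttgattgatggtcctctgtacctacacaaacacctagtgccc
A CCAAT box was found in 7 of the 8 windows, all but that of Aurkc, and in 33.8% of 32851 promoters of the same length. The CHR letters were found only in the window of Cdk1, with 2 matches, against 16% of all promoters. The MYB core (letters AACNG) was searched as well and is not marked in capitals. It was found in every window but that of Ttk, and in 74.2% of all promoters. These matches describe letters and are no evidence of binding.

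The wildtype libraries held 93418341 and 96001773 UMIs, and the knockout library 147783171 UMIs. Low-UMI clusters took 44.3% to 66.6% of the kept barcodes of a library and were left out, which left 2887, 4005 and 3388 germ cells of wildtype 1, wildtype 2 and knockout 1 with median totals of 14746, 11856 and 20142 UMIs. Pairs of libraries shared 27 to 30 barcode sequences, or up to 0.301% of the smaller library. The targeted gene did not mark the knockout library in spermatogonia. Tex10 stood there at 144, 126 and 131 CPM in wildtype 1, wildtype 2 and knockout 1. CPM are UMIs of the gene per 1000000 UMIs of the class. In each later class the knockout value was below both wildtype values. Early spermatocytes had 154, 146 and 138 CPM and late spermatocytes 58.3, 57.3 and 50.5 CPM. Round spermatids had 39.0, 34.1 and 23.9 CPM and elongating spermatids 3.25, 2.97 and 2.37 CPM. A 3′ tag outside a deleted part would not report the deletion, so these values do not check the label, and "knockout" below means the library labelled so. Nothing in the files gives a replicate of the knockout library, so values are set side by side with no p-value. Intervals are exact at 95% and cover counting error only.

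The 5 germ cell classes were named from marker genes, and they split into 15 named clusters. An unnamed cluster of 437 cells, led by Gml, Tex101 and Sycp1, lay between early and late spermatocytes. The 10 members were kept out of the 2000 variable genes that set the clusters, and 0 of them would have been selected. In pseudotime order the clusters are spermatogonia 1 (led by Crabp1 and Uchl1) and 2 (Ccnd1 and Ccna2), early spermatocytes 1 (Stra8 and Prdm9), 2 (Scml2 and Ccnb3) and 3 (Meiob and Mnd1), the unnamed cluster, late spermatocytes 1 (Piwil1) and 2 (Pou5f2), round spermatids 1 to 3 and elongating spermatids 1 to 5. These names are rebuilt from markers and may differ from the study's own. Per class, the highest wildtype mean was in spermatogonia for 3 members (Cdc25c, Aurkb and Ttk), in early spermatocytes for 3 (Cdk1, Cdk2 and Bub1), in late spermatocytes for 3 (Aurka, Aurkc and Nek2) and in round spermatids for 1 (Plk1). Among 10015 genes that reached 20 CPM, 29.0%, 22.3%, 19.4%, 18.9% and 10.5% were highest in the 5 classes from spermatogonia to elongating spermatids.

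**Figure D1:**
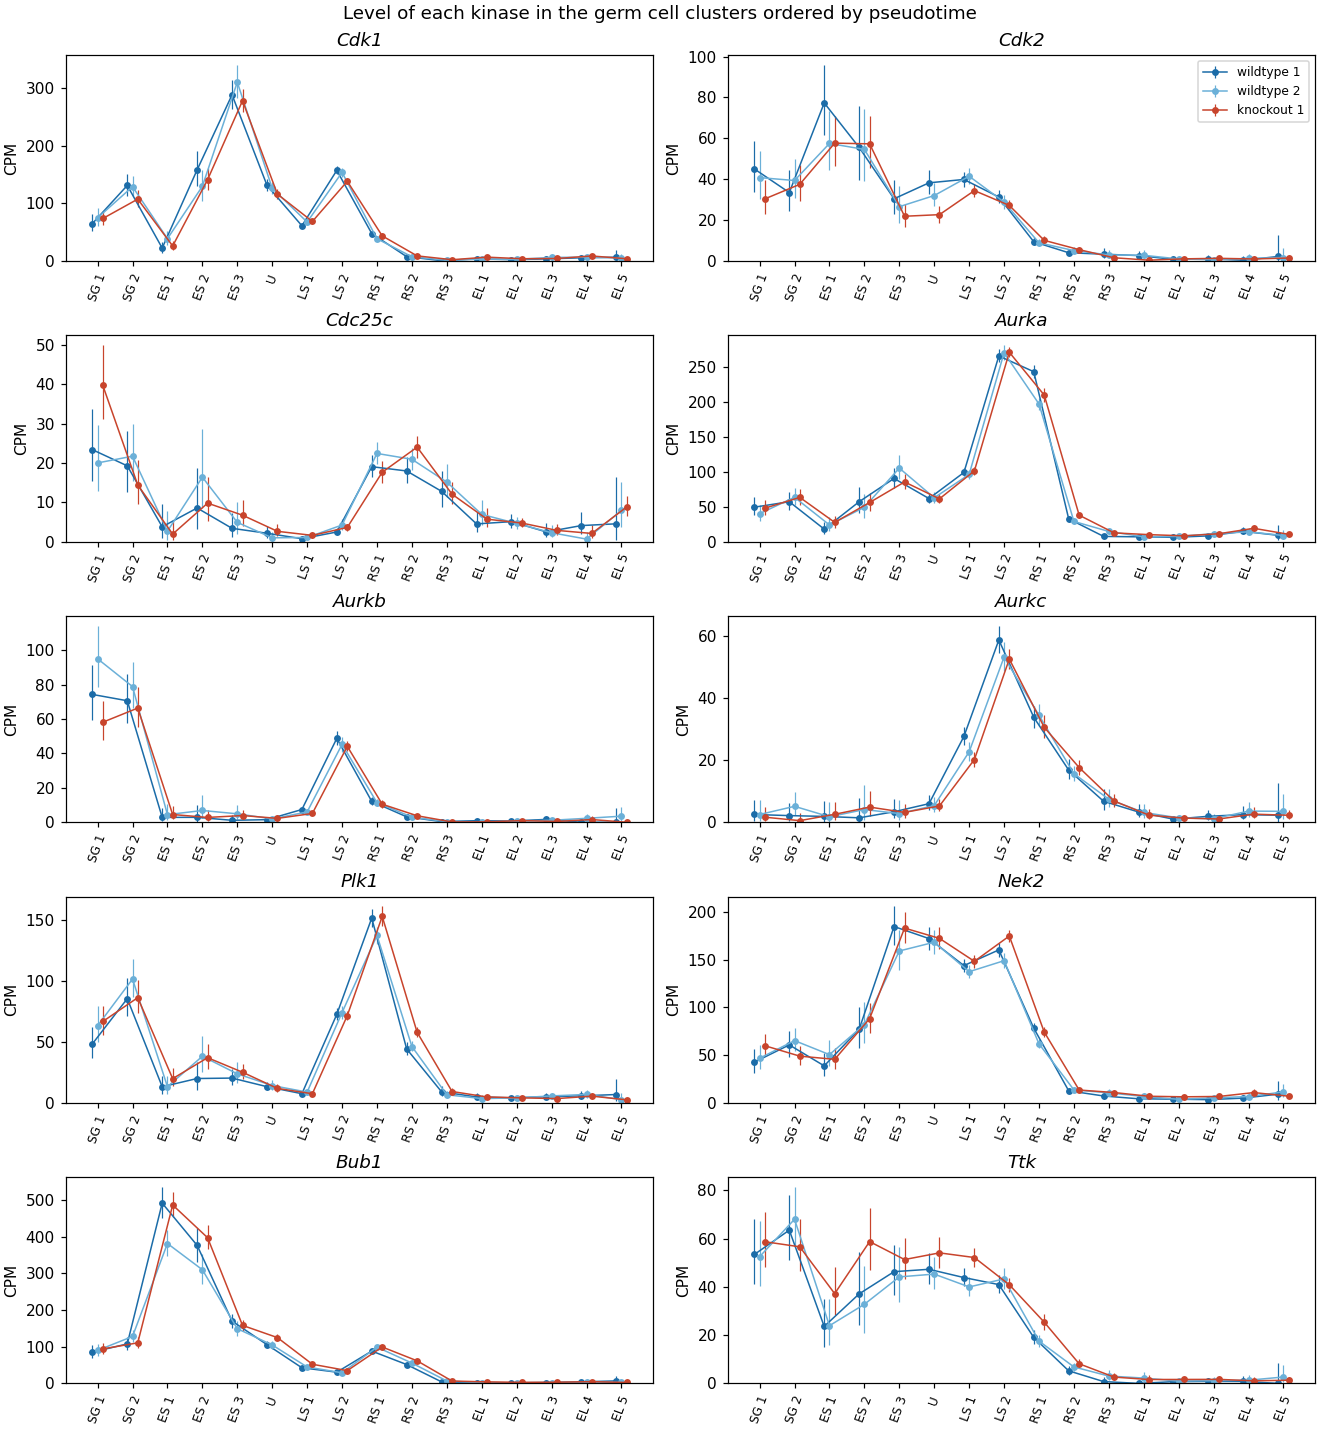
Each panel plots 1 gene in CPM (y axis, linear from 0) across 16 clusters in pseudotime order (SG spermatogonia, ES early spermatocytes, U unnamed, LS late spermatocytes, RS round spermatids, EL elongating spermatids), with a point and a 95% Poisson interval per library. For 6 genes (Cdk1, Cdk2, Aurka, Aurkc, Plk1 and Bub1) the top is at the same cluster in all 3 libraries, from ES 1 for Bub1 to RS 1 for Plk1.

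Cdk1, the M-phase kinase (ENSMUSG00000019942, chr10:69335146-69352938, minus strand), reached its highest CPM long before the meiotic divisions. Per cell it was highest in late spermatocytes 2 in every library. It stood at 288, 310 and 278 CPM in early spermatocytes 3 of wildtype 1, wildtype 2 and knockout 1. Late spermatocytes 2 followed at 157, 154 and 138 CPM, without overlap between the 2 clusters, a wildtype ratio of 1.92. Between these tops lay late spermatocytes 1 with 61.3, 67.7 and 68.7 CPM, and before them early spermatocytes 1 with 22.6, 38.9 and 26.3 CPM. So the level rose to the first top, fell and rose again to the second in every library, and after it was down to 0.752, 1.38 and 2.44 CPM in round spermatids 3. Spermatogonia 2, with the cyclin genes Ccnd1 and Ccna2 among their 10 leading genes, had 131, 129 and 107 CPM against 65.1 to 75.0 CPM in spermatogonia 1.

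Cdk2, the S-phase and meiotic prophase kinase (ENSMUSG00000025358, chr10:128697939-128705031, minus strand), was highest in early spermatocytes 1, the Stra8-led cluster, at 77.4, 57.5 and 57.7 CPM. Early spermatocytes 2 came next with 55.6, 54.6 and 57.3 CPM, a gap to the first cluster that is smaller than the spread of the wildtype libraries in it. The level stayed between 21.9 and 41.5 CPM from early spermatocytes 3 to late spermatocytes 2 and dropped to 9.47, 8.94 and 10.1 CPM in round spermatids 1. The gene overlaps Pmel on the other strand, as Cdc25c, Plk1 and Nek2 overlap Gm3550, Gm44985 and Gm38037, and whether counting used the strand is not given in the sources used here.

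The courses of Cdk1 and Cdk2 were alike overall (Pearson r = 0.900 over the 60 bin values described below) but the share that each held of the pair differed between clusters. Cdk2 took 77.4%, 59.6% and 68.7% of the Cdk1 plus Cdk2 UMIs in early spermatocytes 1, from 106, 109 and 131 UMIs. In early spermatocytes 3 the Cdk1 share was 90.4%, 92.1% and 92.7%, in late spermatocytes 1 it was 60.6%, 62.0% and 66.6%, and in late spermatocytes 2 it was 83.4%, 84.2% and 83.6%. The ranges of the 3 libraries do not overlap between any of these 4 clusters. Summed over whole classes the switch is hidden: the Cdk1 share lay between 72.2% and 81.5% in the spermatogonia, early and late spermatocytes and round spermatids of every library. Shares compare 3′-end counts of different genes, which are not divided by length because each molecule gives 1 tag, and genes may differ in capture.

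Cdc25c, the CDK1-activating phosphatase (ENSMUSG00000044201, on chromosome 18), had 2 separate tops with low values between them, apart from 8.55, 16.4 and 9.79 CPM in early spermatocytes 2. It stood at 21.1 ± 0.0972 CPM (SD, n = 2) in wildtype and 26.7 CPM in knockout spermatogonia and at 17.8, 20.7 and 19.2 CPM in round spermatids. In late spermatocytes it was at 1.60, 2.58 and 2.79 CPM, from 38, 51 and 89 UMIs. Peritubular myoid cells, a somatic type that should lack it, had 9.63, 2.45 and 3.28 CPM from 5, 1 and 2 UMIs. Per cell, late spermatocytes held 0.113, 0.127 and 0.234 UMIs of Cdc25c, while the myoid UMIs came from 84, 76 and 82 cells. The part of free RNA in this trough was not tested. Within spermatogonia 1 the knockout value was 39.7 CPM from 73 UMIs, against 21.7 ± 2.38 CPM (SD, n = 2) in wildtype from 28 and 24 UMIs, and within spermatogonia 2 it was 14.4 against 19.3 and 21.7 CPM.

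Aurora kinases changed hands along the germ line. Aurkb (ENSMUSG00000020897, chr11:69045647-69051664, plus strand), the passenger complex kinase, had its highest CPM in spermatogonia, with 72.3, 85.4 and 62.4 CPM in wildtype 1, wildtype 2 and knockout 1. Per cell it was highest in late spermatocytes 2 in every library. It was at 1.98, 5.17 and 3.78 CPM in early spermatocytes, from 7, 17 and 22 UMIs. A second, lower top came in late spermatocytes 2 with 48.7, 45.3 and 44.1 CPM, after 7.40, 6.00 and 5.10 CPM in late spermatocytes 1. Myoid cells had 0, 2.45 and 1.64 CPM. Thus Aurkb was counted at the mitotic stage, was within a few CPM of the myoid level in early spermatocytes, and was counted again in the last spermatocyte cluster. Its values in spermatogonia did not overlap those of any other class.

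Aurkc, the germ cell relative (ENSMUSG00000070837, chr7:6995300-7003091, plus strand), had no such spermatogonial phase. It stood at 2.31, 4.07 and 1.06 CPM in spermatogonia and 2.55, 2.74 and 3.44 CPM in early spermatocytes, against 2.45 to 6.55 CPM in myoid cells, so these levels cannot be told from free RNA. The unnamed cluster had 5.99, 5.38 and 5.26 CPM, late spermatocytes 1 had 27.7, 22.7 and 20.2 CPM, and late spermatocytes 2 had 58.8, 53.3 and 52.7 CPM. The ranges of the 3 libraries do not overlap between these clusters. In round spermatids 1, 2 and 3 it declined over 33.9, 34.5 and 30.6 CPM, then 16.9, 15.7 and 17.7 CPM, then 6.77, 7.43 and 6.84 CPM. All Aurkc values are uncertain, because 87.6% of the 31-base words in its last 500 transcript bases are also found in the pseudogenes Gm12463, Gm6909, Gm7789 and Gm45598, which have no row in the count tables.

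Aurka, the spindle-pole kinase (ENSMUSG00000027496, chr2:172356190-172370535, minus strand), was the most counted of the 3 in every class but spermatogonia. It reached 265, 270 and 270 CPM in late spermatocytes 2 and 243, 197 and 209 CPM in round spermatids 1, and the lowest of the first cluster exceeds the highest of the second. From there it fell to 32.6, 28.9 and 37.8 CPM in round spermatids 2. Before the spermatids its lowest level was in early spermatocytes 1, with 17.9, 23.9 and 27.6 CPM, close to the 12.2 to 21.3 CPM of myoid cells. Sertoli cells, another somatic type, numbered only 6, 1 and 41 in wildtype 1, wildtype 2 and knockout 1. The 41 had 25.7 CPM of Aurka, 19.3 CPM of Bub1 and 82.6 CPM of Cdk1, from 28, 21 and 90 UMIs, against 21.3, 13.1 and 11.5 CPM in myoid cells of that library, and the bearing of this on the reading of free RNA was not tested.

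As shares of Aurora UMIs, Aurkb held 56.5% (50.9 to 61.9), 59.6% (54.7 to 64.3) and 52.3% (47.6 to 57.0) in spermatogonia of wildtype 1, wildtype 2 and knockout 1, and Aurka most of the rest. In early spermatocytes Aurka held 93.2%, 89.1% and 89.7%. Aurkc rose to 17.1% (16.2 to 18.1), 15.5% (14.5 to 16.5) and 14.7% (13.9 to 15.4) in late spermatocytes, where Aurkb held 11.1%, 10.3% and 10.5%. In these counts the order of the 2 passenger kinases was therefore reversed between spermatogonia and late spermatocytes in all 3 libraries. The Aurkc shares carry the uncertainty from pseudogenes given above, which the intervals do not cover. The share of Aurkc was higher still in round spermatids 2, at 32.0%, 32.9% and 29.8% of 334, 489 and 708 Aurora UMIs, where all 3 transcripts were lower than in late spermatocytes. Round spermatids 3 had 46.2%, 33.3% and 35.0%, from 39, 81 and 120 UMIs.

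**Figure D2:**
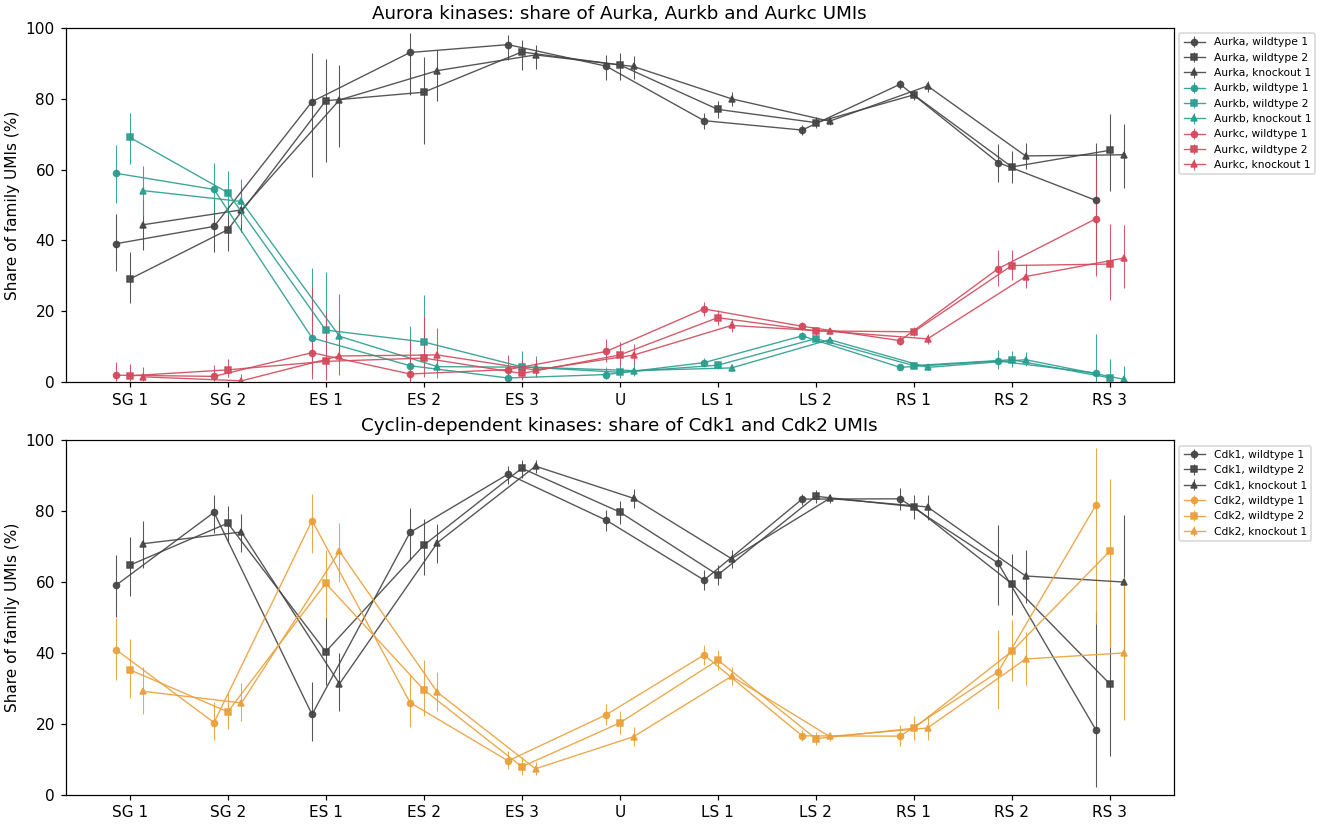
The share of each paralog in the UMIs of its family (y axis, percent) is plotted across the first 11 clusters in pseudotime order, with a marker per library and 95% binomial intervals. Aurkb holds the upper place in SG 1 and SG 2 and Aurka from ES 1 on, and Cdk2 lies above Cdk1 at ES 1 in all 3 libraries, and again at RS 3 in both wildtype libraries, on few UMIs.

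Plk1, the kinase of centrosomes and kinetochores (ENSMUSG00000030867, chr7:122159439-122169873, plus strand), was highest in round spermatids 1, the first spermatid cluster in pseudotime order. Round spermatids 1 had 152, 138 and 153 CPM, above the 85.6, 102 and 86.4 CPM of spermatogonia 2 and the 72.7, 74.2 and 71.7 CPM of late spermatocytes 2. The marker score behind its name was 1.25, with late spermatocytes second, against 2.57 and 2.37 for round spermatids 2 and 3. With no doublets left out, late spermatocytes numbered 669, 808 and 573 cells in place of 336, 403 and 381. Round spermatids then numbered 309, 673 and 406 in place of 616, 1035 and 632. Whether the cells of round spermatids 1 had all divided was not tested. The lowest value before the spermatids was in late spermatocytes 1, at 7.49, 8.80 and 7.46 CPM, below the 14.7 to 16.4 CPM of myoid cells. The median cell held 55842 UMIs in late spermatocytes 1 and 5368 to 7417.5 in myoid cells, so this order holds in CPM only. The part of free RNA in this trough was not tested. Per class, round spermatids (88.7 ± 11.1 CPM, SD, n = 2) and spermatogonia (77.3 ± 12.5 CPM) do not differ beyond the spread of the wildtype libraries, and which class was highest changed under 6 of the alternatives tried. In its last 500 transcript bases 11.8% of the words are shared with the pseudogene Plk-ps1. Of the UMIs of Plk1, Plk2, Plk3 and Plk4, Plk1 held 12.7% to 15.5% in early spermatocytes and 58.3% to 63.3% in round spermatids.

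Nek2, the centrosome separation kinase (ENSMUSG00000026622, chr1:191821444-191833050, plus strand), showed a plateau in place of a top. It stood at 185, 159 and 183 CPM in early spermatocytes 3, 172, 168 and 172 CPM in the unnamed cluster, 144, 137 and 148 CPM in late spermatocytes 1 and 160, 149 and 175 CPM in late spermatocytes 2. The libraries' ranges overlap between these clusters, except that late spermatocytes 1 lay below the other 3. Nek2 then fell to 78.1, 61.7 and 74.1 CPM in round spermatids 1 and to 12.6, 13.5 and 13.4 CPM in round spermatids 2. Spermatogonia 1 and 2 held 42.6 to 65.1 CPM.

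Bub1, a checkpoint kinase of the kinetochore (ENSMUSG00000027379, chr2:127801122-127831865, minus strand), had the highest CPM of all members, and at the start of meiosis. Early spermatocytes 1 had 491, 381 and 486 CPM and early spermatocytes 2 had 376, 310 and 397 CPM, which overlap. It was down to 30.6, 28.9 and 34.8 CPM in late spermatocytes 2, the last spermatocyte cluster in pseudotime order. Round spermatids 1 came back to 88.1, 98.8 and 99.2 CPM. Ttk, the kinase at the head of the same checkpoint (ENSMUSG00000038379, chr9:83834689-83872389, plus strand), did not follow Bub1: in early spermatocytes 1 it was at its low among the cycling and meiotic clusters, with 23.6, 23.9 and 37.2 CPM. Spermatogonia had 58.8, 61.7 and 57.6 CPM, late spermatocytes 42.4, 41.5 and 45.5 CPM, and round spermatids 11.5 ± 0.665 CPM (SD, n = 2) in wildtype and 12.6 CPM in the knockout library, with no overlap between these classes.

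In elongating spermatids all 10 members were at or below 10.7 CPM in every library, with Aurka the highest (8.10, 9.36 and 10.7 CPM). In the same library, myoid cells had more, except for Cdc25c in wildtype 2 and knockout 1 and for Bub1 and Aurkb in wildtype 1, where myoid cells had 0 UMIs of both.

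The stage of the top depends on whether a level is given in CPM or per cell, since the median cell held 6176 UMIs in early spermatocytes 1 and 83974 in late spermatocytes 2. Per cell, 8 of the 10 members were highest in late spermatocytes 2 by the wildtype mean: Cdk1, Cdk2, Aurka, Aurkb, Aurkc, Plk1, Nek2 and Ttk. Cdk1 rose from 3.86 UMIs per cell in early spermatocytes 3 to 11.1 in late spermatocytes 2, although its CPM was lower there. Aurkb had 3.36 UMIs per cell in late spermatocytes 2 against 1.16 in spermatogonia 1. Bub1 had similar values over a long stretch, with 2.58 UMIs per cell in early spermatocytes 1, 2.99 in the unnamed cluster and 2.12 in late spermatocytes 2. Cdc25c was highest per cell in round spermatids 2. Only Aurka and Aurkc had their top in the same cluster on both scales.

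**Figure D3:**
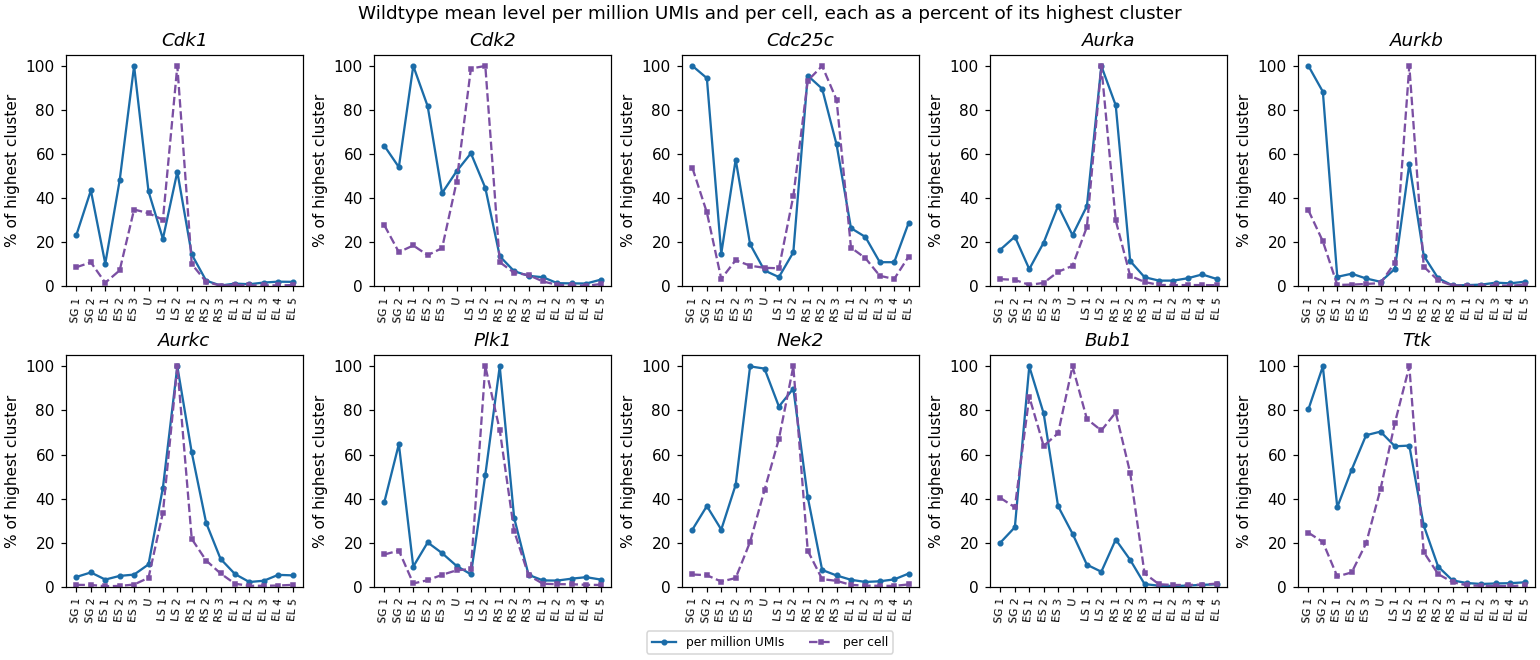
Wildtype mean level of each gene in CPM (solid) and in UMIs per cell (dashed), each as a percent of its own highest cluster (y axis), across the 16 clusters. The curves of Aurka and Aurkc share their top at LS 2, whereas for Cdk1, Bub1, Cdk2 and Ttk they part.

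Ordering the cells along pseudotime in 20 bins of 514 cells gave the order without cluster borders. Highest bins of the wildtype mean were bin 1 for Aurkb and Ttk, bin 3 for Cdk2 and Bub1, bin 4 for Cdk1 and Nek2, bin 6 for Aurkc, bin 7 for Aurka and Plk1, and bin 9 for Cdc25c. Bins 5 and 6 were mostly late spermatocytes and bin 7 was 69.6% round spermatids. In 7 members the highest bin was the same in wildtype 1, wildtype 2 and knockout 1. The exceptions were Aurkc (bins 6, 7 and 6), Nek2 (bins 4, 6 and 4) and Cdc25c (bins 1, 9 and 1). For Cdc25c bins 1 and 9 were close in wildtype 1 (24.4 and 22.6 CPM) and knockout 1 (30.2 and 26.5 CPM) and farther apart in wildtype 2 (18.5 and 29.6 CPM). The last bin, with 91.8% elongating spermatids, had more Aurka than bin 19 in wildtype 2 (52.2 after 17.7 CPM) and knockout 1 (28.0 after 18.5 CPM) but not in wildtype 1 (14.3 after 16.6 CPM).

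**Figure D4:**
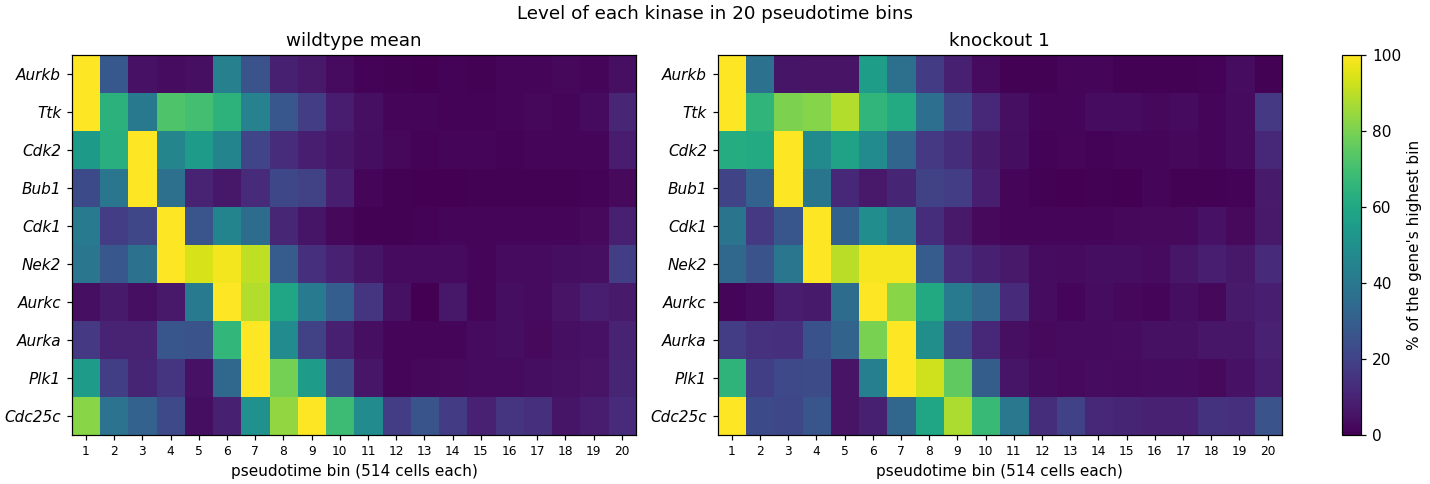
Each row is a gene and each column a pseudotime bin of 514 germ cells, coloured by the level as a percent of the gene's highest bin, for the wildtype mean (left) and the knockout library (right). Rows are sorted by the highest bin of the wildtype mean, which sets the diagonal on the left. In the same row order the knockout library also runs from Aurkb in bin 1 to Plk1 in bin 7. Cdc25c lights up in bin 1 and again in bins 8 to 10.

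Among the members, the courses of Cdk1 and Nek2 were most alike over 20 bins in 3 libraries, with Pearson r = 0.954 of log2(CPM + 1), and Cdk1 and Cdc25c least alike, at 0.164. The 60 points share libraries and depth, so these are descriptions. Of 10547 genes that reached 20 CPM in some bin of every library, the 3 most like Plk1 were Ccnb1 (r = 0.969), AI837181 (0.943) and Lin7c (0.927). Ccnb1 encodes a B-type cyclin that partners CDK1. For Cdk1 they were Diablo (0.969), Cdca8 (0.968), a passenger complex subunit, and Trpc4ap (0.964). For Cdk2 they were Cdk11b (0.983), Sptan1 (0.981) and Cntrl (0.980), a centriole protein.
Most like Aurka were Flywch1 (0.977) and Znhit3 (0.973), like Aurkb Klhl21 (0.915), Apbb1 (0.892) and Pusl1 (0.891), and like Aurkc 1700010B08Rik (0.957), Mad2l2 (0.952) and 1700001G11Rik (0.95). KLHL21 is an adaptor of a ubiquitin ligase that acts on AURKB in mitosis. For Nek2 they were Actg1 (0.975), Diablo (0.975) and Psip1 (0.972), for Bub1 Ptpn2 (0.975), Rad17 (0.974) and Far1 (0.971), and for Ttk Trappc4 (0.981), Sf3b1 (0.975) and Psmc1 (0.974). Cdc25c had no gene as close: Nutm1 led at 0.857, before Lrp8 (0.852) and Ubald2 (0.842).

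How evenly cells carried these transcripts was read after thinning each cell to 5000 UMIs, which leaves counting noise at a variance-to-mean ratio near 1. In spermatogonia the ratio was 1.43, 2.03 and 1.42 for Plk1 and 1.44, 1.72 and 1.29 for Cdk1, against 0.870, 0.863 and 0.896 for Cdk2. Plk1 and Cdk1 had the 2 highest ratios of the 10 members in each library. Of spermatogonia with a Plk1 UMI, 52.7%, 45.8% and 31.7% also had a Cdk1 UMI, against 33.5%, 27.7% and 26.6% of those without. In late spermatocytes the same shares were 62.7%, 57.1% and 50.8% against 34.3%, 28.5% and 33.0%, and for Aurka beside Plk1 they were 76.3%, 73.0% and 77.8% against 47.4%, 49.2% and 51.5%. Each class holds 2 clusters that differ in these genes. Ttk and Bub1, of the same checkpoint, did not go together in late spermatocytes, where 12.7%, 17.4% and 21.9% of cells with Ttk had Bub1, against 18.1%, 19.3% and 21.4% of those without.

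The share of cells with a UMI was compared at 2000 UMIs per cell. Aurka was then seen in 27.2%, 25.8% and 28.6% of late spermatocytes (97.6%, 92.1% and 94.2% before thinning) against 8.33%, 1.32% and 8.64% of myoid cells. Bub1 was seen in 46.7%, 43.4% and 48.8% of early spermatocytes, 84.1%, 73.9% and 90.0% before thinning, and in 0%, 0% and 3.70% of myoid cells. Aurkb was seen in 12.8%, 14.9% and 8.30% of spermatogonia and in 0.494%, 0.638% and 1.37% of early spermatocytes, the latter no higher than the 0% to 1.32% of myoid cells but for the knockout library. Median depths before thinning were 47754 to 85502 UMIs in late spermatocytes, 5564 to 8859 in early spermatocytes and 5368 to 7417.5 in myoid cells. Thinning left out 9 to 28 elongating spermatids per library and 0 to 9 cells in each other class.

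The genes around the kinases were taken as 43 companions in 7 role groups. Of these, 37 reached 20 CPM in a class. The class of the highest level was counted over all 43, without that filter. It was spermatogonia for 20, early spermatocytes for 12, late spermatocytes for 6, round spermatids for 4 and elongating spermatids for 1. Of the 10015 genes that did reach 20 CPM, 29.0%, 22.3%, 19.4%, 18.9% and 10.5% were highest in the same classes. All levels that follow are wildtype means ± SD (n = 2). Among 7 cyclins, 3 were highest in spermatogonia, 2 in early spermatocytes and 2 in round spermatids, the latter being Ccnb2 (241 ± 10.6 CPM) and the meiotic cyclin Ccna1 (218 ± 27.7 CPM), which was also used as a marker of late spermatocytes. Of 11 CDK partners, activators and inhibitors, 7 were highest in spermatogonia, while the most counted were the CDK-binding Cks2 in early spermatocytes (959.5 ± 35.8 CPM) and Spdya in late spermatocytes (374 ± 8.42 CPM), a non-cyclin activator of CDK2.
Of 6 Aurora partners, Haspin, whose mark on histone H3 recruits the passenger complex, was highest in round spermatids (515 ± 27.6 CPM), and the passenger subunit Cdca8 in early spermatocytes (304 ± 3.36 CPM). Cdca8 was thus high in early spermatocytes, where Aurkb was near the myoid level. In the other groups the 2 most counted were Knl1 (174 ± 16.9 CPM, early spermatocytes) and Bub3 (138 ± 6.00 CPM, late spermatocytes) of the checkpoint, Cdc20 (258 and 242 CPM in early spermatocytes of wildtype 1 and 2) and Pttg1, securin (236 ± 6.93 CPM, late spermatocytes) of anaphase control, Arpp19 (507 ± 34.5 CPM, spermatogonia) and Ensa (153 ± 2.87 CPM, early spermatocytes) of the Greatwall pathway, and Plk4 (122 ± 11.1 CPM) and Plk2 (9.20 ± 1.40 CPM), both in early spermatocytes, of the other Polo-like kinases.

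The knockout library was compared with both wildtype libraries by a fixed rule of size: 2-fold or more against each of them (1 CPM added) in 1 direction, a smaller log2 ratio still 2 times that of the wildtype pair, and 20 CPM in some library. None of the 10 members passed it in any germ cell class. The 20 CPM were reached by 9 members in spermatogonia and in late spermatocytes, by 7 in early spermatocytes and in round spermatids, and by 0 in elongating spermatids. Over all genes the rule called 0.366%, 0.255%, 0.676%, 1.2% and 1.69% in these classes, so a count of 0 members is near what the background gives. Of the 43 companions 0 passed. With each wildtype library put in the place of the knockout library, the rule called 0 to 4 genes a class.

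**Figure D5:**
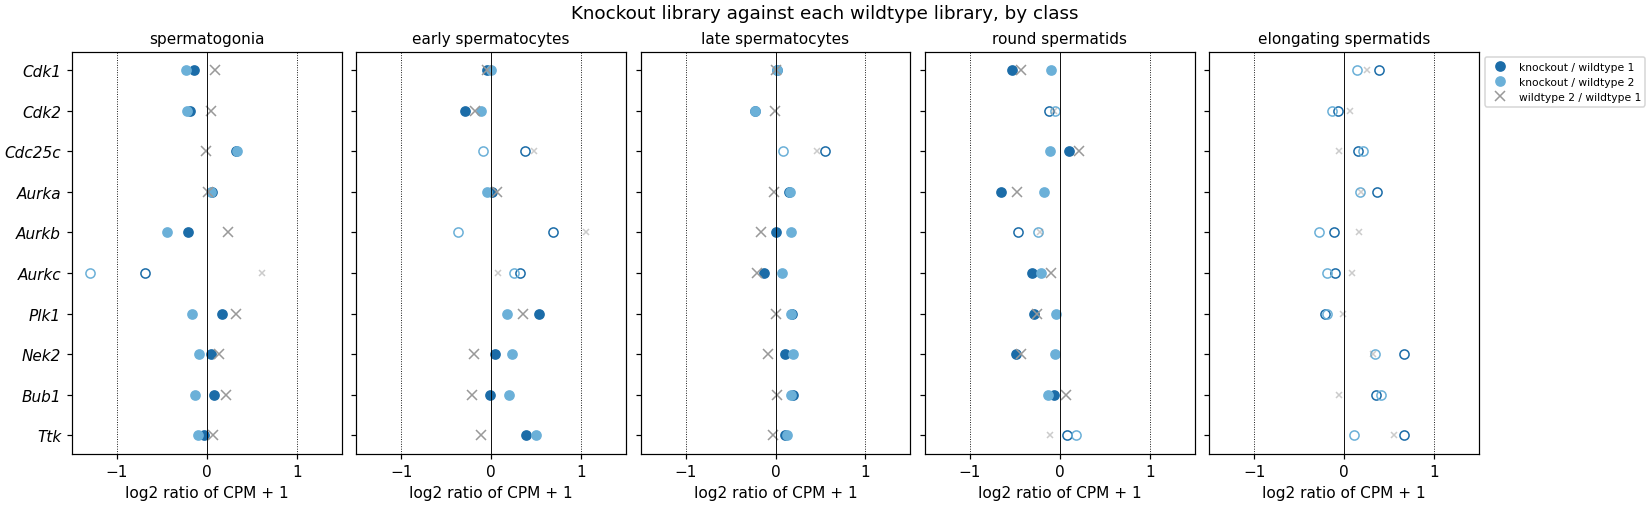
The log2 ratio of CPM + 1 (x axis) is drawn for each gene and class, knockout against wildtype 1 and wildtype 2 (circles) and wildtype 2 against wildtype 1 (crosses). Open circles and small crosses stand for genes under 20 CPM in all 3 libraries, and dotted lines mark 2-fold. All filled circles lie within the dotted lines.

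Smaller differences went mostly 1 way in 2 classes whose makeup by cluster also differed between the libraries. In round spermatids 6 of 7 members were below both wildtype libraries in the knockout library, against 44.7% of 5819 genes. Aurka stood at 141, 101 and 89.4 CPM in wildtype 1, wildtype 2 and knockout 1, a ratio to the pooled wildtype of 0.755 (0.719 to 0.792). Round spermatids 1, the cluster in which Aurka, Plk1, Cdk1 and Nek2 are high, made up 58.0%, 48.0% and 39.1% of the class. With each cluster given the same weight in every library, 1 of the 7 members was below and 3 were above both wildtype libraries. Over all genes 34.5% were then below and 41.2% above. Aurka stood at 94.3, 80.0 and 86.6 CPM.
In late spermatocytes 7 of 9 members were above both wildtype libraries, against 40.2% of 5622 genes. Aurka stood at 181, 179 and 201 CPM, a ratio of 1.11 (1.08 to 1.15). Late spermatocytes 2 made up 43.5%, 38.2% and 49.1% of that class. With equal weights 4 of 9 were above and 5 below, against 42.5% and 34.2% of genes, and Aurka stood at 182, 183 and 186 CPM.

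Ttk and Bub1 were the members whose knockout level was above both wildtype libraries in the most clusters. In early spermatocytes Ttk had 37.6, 34.6 and 49.3 CPM from 133, 114 and 287 UMIs, a ratio of 1.36 (1.15 to 1.62), and it exceeded both wildtype libraries in each of early spermatocytes 1, 2 and 3. Of the 9 clusters in which Ttk reached 20 CPM it was above both wildtype libraries in 7 and below in 2, and Bub1 was above in 7 of 10 and below in 0, while on average 38.5% and 39.0% of genes at that level were above in the same clusters. Cdk2 went the other way. It was below both wildtype libraries in 5 of 8 clusters and above in 1, where 32.6% of genes were below on average, with 35.7, 35.5 and 30.2 CPM in late spermatocytes, a ratio of 0.849 (0.783 to 0.921). Aurkb and Aurkc were below both in 3 of 3 clusters each, where 33.9% and 32.8% of genes were below on average, Aurkb with 72.3, 85.4 and 62.4 CPM in spermatogonia, a ratio of 0.787 (0.669 to 0.924). All of these are within 2-fold, and with 1 knockout library of 2 pooled mice a difference between mice, libraries and genotypes cannot be told apart.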

How the data were processed

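The members and lists were chosen with earlier results of these data known. The deposited values are UMI counts for each gene in each barcode, made with Cell Ranger 4.0.0 per the file headers; the submitters' processing notes also name mm10 and Seurat 4.0.5. The annotation and strand setting are not given in the sources used here. Gene positions are from GENCODE M21 (GRCm38), which holds 32235 of the 32285 genes.

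Barcodes with at least 1000 UMIs, 500 genes and at most 10% mitochondrial UMIs were kept, and the top 8% of doublet scores (Scrublet's scheme) left out per library. After 2000 variable genes without the members, 30 components and 15 neighbours, cells were clustered with Leiden at resolution 1 (leidenalg 0.10.2, scanpy 1.11.5, numpy 2.4.6). Clusters needed 3 detected markers for a name, and those with median totals under 3 times a library's lowest were left out as low-UMI. UMIs were summed per class and library and divided by the sum, times 1000000 (CPM). Pseudotime is the shortest path over 30 neighbours, edges weighted by distance to the power 4, from spermatogonia. It replaced the planned diffusion pseudotime after that had put elongating before round spermatids. The size rule was tested on simulated data. Genes named are the members, the 2 most counted companions of each role group and the 3 genes most like each member, of which 1 is not reported here. Replicates are mice of the wildtype, and the alternatives tried are given in the closing section.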

Additional observations from a re-analysis of the deposited data

Results flagged for a closer look

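Nek2 stood at 85.9 CPM in the low-UMI barcodes of the knockout library, which the report's classes leave out, against 45.4 and 60.7 CPM in those of wildtype 1 and wildtype 2. It was listed because the lower bound of its counting interval was above both wildtype upper bounds, which held for none of the other 9 members. These barcodes held 1817, 396 and 422 Nek2 UMIs in knockout 1, wildtype 1 and wildtype 2. Their number differed between the libraries, with 7364 in knockout 1 and 4364 and 3396 in the wildtype libraries, and so did their median totals of 2112, 1482.5 and 1480 UMIs. The part of either in the Nek2 value was not tested.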

How the results depend on the processing

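None of the 10 members passed the size rule under any alternative, and the highest class of a member stayed as reported for 7 to 10 of 10 under the planned ones. Plk1 left round spermatids for spermatogonia with at least 2000 UMIs, with no doublets left out, at Leiden resolution 2, without wildtype 1 and with clusters weighted equally, and for late spermatocytes with low-UMI clusters kept. Nek2 moved to early spermatocytes with no doublets left out, at resolution 2 and with low-UMI clusters kept, Cdc25c to round spermatids with no doublets left out, and Cdk2 to spermatogonia with low-UMI clusters kept. By UMIs per cell, an alternative added after seeing the data, 7 members in place of 3 were highest in late spermatocytes. As reported, the wildtype mean share was 58.0% for Aurkb in spermatogonia, 91.2% for Aurka in early spermatocytes, 16.3% and 15.8% for Aurkc in late spermatocytes and round spermatids, and 72.5%, 79.5%, 75.4% and 78.1% for Cdk1 in the 4 classes from spermatogonia to round spermatids. With low-UMI clusters kept, Aurkb held 61.1% of Aurora UMIs in spermatogonia, Aurka 76.7% in early spermatocytes, and Aurkc 15.01% in late and 26.5% in round spermatids, and the Cdk1 share was 62.2%, 77.9% and 62.9% in spermatogonia, late spermatocytes and round spermatids. With no doublets left out, Aurkc held 15.046% in late and 27.1% in round spermatids, and Cdk1 76.0% and 65.2%, so that the Aurkc share in round spermatids rose by over 1.5 times under both. At Leiden resolution 2 these were 14.9%, 21.6%, 77.1% and 70.1%, and at resolution 0.5 the Cdk1 share in late spermatocytes was 76.2%. With at least 2000 UMIs it was 75.6% there and 72.3% in round spermatids. By the mean over cells, Aurkb held 54.4% in spermatogonia and Cdk1 72.6% in early and 74.3% in late spermatocytes. With cells thinned to 2000 UMIs, Aurkc held 14.7% in late spermatocytes and Cdk1 75.6%, 73.6% and 73.5% in spermatogonia, early and late spermatocytes. With clusters weighted equally, also added later, Cdk1 held 71.6%, 75.9% and 75.7% in these classes.

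Over all genes, the size rule called 27, 18, 38, 70 and 54 in the 5 classes from spermatogonia to elongating spermatids. At 1.5-fold it called 85, 66, 94, 232 and 163, and with no CPM filter 249, 138, 106, 190 and 168. Thinned cells gave 178, 42 and 84 in the first 3 classes, low-UMI clusters kept gave 41 in spermatogonia, and Leiden resolutions 0.5 and 2 gave 163 and 147 in round spermatids. Leaving out wildtype 1 or wildtype 2 gave 46 to 54 in spermatogonia (54 without wildtype 1) and 22 to 32 in early spermatocytes (32 without wildtype 1). The cause of these changes was not tested.

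Of 600 alternative class levels of the members 367 moved by less than the spread of the wildtype libraries, and of 372 with a main level of 20 CPM or more 20 moved by over 1.5 times. Of 650 alternative log2 ratios 92 had the opposite sign to the reported one, all of which lay below the size rule. The highest pseudotime bin moved by more than the width of 1 of the 20 bins in 3 of 40 cases, for Cdc25c and Nek2. Shifts of up to that width were not counted. Aurkc, at bin 6 in the wildtype mean and at bin 7 without wildtype 1, was such a case. No paired analysis was possible because no label pairs a knockout library with a wildtype library, and a library of 1 knockout pool has no replicate.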

Other observations

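The highest Aurka level of any group of barcodes was outside the named classes. A low-UMI cluster of 628 barcodes, led by Lpxn, Pxt1 and Mad2l2, had 434, 452 and 400 CPM of Aurka in wildtype 1, wildtype 2 and knockout 1, from a median of 2175.5 UMIs per barcode. The same cluster had 64.1, 90.4 and 76.2 CPM of Aurkc, 204, 228 and 167 CPM of Cdk1 and 106, 118.5 and 88.7 CPM of Plk1. Late spermatocytes 2 reached 265, 270 and 270 CPM of Aurka and 58.8, 53.3 and 52.7 CPM of Aurkc. Mad2l2 was also among the 3 genes whose course over pseudotime was most like that of Aurkc.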
